A study of Mus musculus with 8 samples.

Results

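Chemokines are small secreted proteins that direct the movement of leukocytes and other cells along concentration gradients, and chemokine receptors are the G protein-coupled receptors that read them. The genes described here were chosen by symbol, as all Ccl and Cxcl ligands and Ccr and Cxcr receptors in the count table together with Cx3cl1, Cx3cr1 and Xcl1. The rule found 58 rows among the 27036 genes of the table, made up of 40 ligand rows and 18 receptor rows. The rows carry 57 symbols, because Ccl25 was listed under 2 gene identifiers. Of these, 28 passed the filter on low counts (20 ligands and 8 receptors), 23 had some counts without passing, and 7 had no count in any library.

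RNA was sequenced in bulk from mouse prostate tissue of 3 groups. The 3 WT prostates came from R26 mTmG/+:Osr1 Cre/+ mice, which carry Cre and the fluorescent reporter but no hAR transgene. The genotype of the 3 PIN (prostatic intraepithelial neoplasia) and 2 PCa (prostate adenocarcinoma) samples was R26 mTmG/hAR:Osr1 Cre/+, where the hAR transgene is switched on in Osr1-expressing cells and their descendants by Cre under the Osr1 promoter. Every group therefore carried Osr1 Cre and the reporter, on a mixed background of C57BL/6 and 129S1/SvImJ. The WT mice were matched for age and sex, and the ages of the mice behind these libraries are not given in the sources used here. The paper reports PIN lesions from a younger age than PCa lesions, so age and stage may not be told apart in PCa against PIN. PIN and PCa tissue was picked under the microscope for atypical or tumor cells, and no such picking is described for WT, so tissue selection and genotype cannot be told apart in a comparison with WT. The count table holds mouse gene models only, so the human transgene was not measured here.

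In the prostate, chemokines are made by epithelium, by the fibromuscular stroma and by resident and infiltrating leukocytes. Receptors pair with ligands in a partly redundant way. Cxcl12 is read by Cxcr4 and bound by the scavenging receptor Cxcr7, the CXC ligands that attract neutrophils are read by Cxcr2, the interferon-induced ligands by Cxcr3, and the inflammatory CC ligands by receptors that include Ccr1 and Ccr2. In bulk tissue, fewer cells of a type and less RNA per cell cannot be told apart, and this holds for every value below.

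Between 21751803 and 29730420 reads were counted to genes per library. Levels are given as CPM, the counts of a gene relative to the library total after scaling by TMM, and as TPM, which also divides by gene length, where genes are compared with each other. The libraries differed in makeup in ways that touch the chemokine values. Summed over 4 pan-leukocyte markers, the level was 24.6 to 46.0 CPM in WT, 18.1 to 65.4 CPM in PIN, 140.3 CPM in PCa 1 and 13.5 CPM in PCa 2. Smooth muscle markers summed to between 1832 and 5366 CPM in WT and PIN but to 36.8 and 18.9 CPM in the PCa libraries, and 5 of 5 were called lower in PCa against both other groups. Prostate secretory markers, which define the tissue, summed to at least 45810 CPM in each WT and PIN library and to 224.4 and 1131 CPM in PCa. Of the 5, Tgm4 and Pbsn were called lower in PCa against both other groups, and they made up most of the WT and PIN sums. Msmb, at 404.5, 0.272 and 1.57 CPM in WT and 13.1 and 2.54 CPM in PCa, was uneven within WT, as was Spink3. Seminal vesicle markers stood out in WT 1 (14560 CPM) and PCa 1 (3730 CPM), against 284.8 CPM in PCa 2 and at most 28.0 CPM elsewhere.

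Chemokine transcripts as a whole were most abundant in PCa 1. Summed over the 58 rows, the level was 288.1, 184.5 and 192.5 CPM in WT, 264.9, 317.4 and 226.6 CPM in PIN, and 651.2 and 130.6 CPM in PCa. The highest and the lowest sums of the 8 libraries were thus those of the 2 tumors. Per length, the 10 members with the highest mean level over all libraries were Cxcl14 (63.8 TPM), Ccl8 (57.9 TPM), Cxcr7 (39.2 TPM), Ccl6 (34.6 TPM), Ccl11 (27.6 TPM), Cx3cl1 (25.8 TPM), Cxcl13 (24.2 TPM), Cxcl16 (22.4 TPM), Cxcl5 (18.6 TPM) and Cxcl12 (16.2 TPM). The means of Ccl8 and Cxcl5 rest mainly on PCa 1, and large parts of those of Ccl6, Cxcl13 and Ccl11 come from 1 library each, PCa 1 (138.9 TPM), PIN 2 (97.8 TPM) and PIN 3 (106.9 TPM). All 10 but Cxcl5 had counts in every library.

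The first comparison asked which chemokine genes differ between adenocarcinoma and normal prostate. Cxcr4, the signaling receptor of Cxcl12, was the 1 member of the 28 tested that was called, and it was higher in PCa. A gene was called where the adjusted p of edgeR's quasi-likelihood test was under 0.05 and the log2 fold change was over 1 in size. At these limits 8.54% of all 14034 tested genes were called against WT and 5.72% against PIN, so 1 of 28 is no more than the share over all genes. At an unadjusted p under 0.05 there were 2 members against WT (27.5% of all tested genes) and 6 against PIN (22.8%). The median log2 fold change of the tested members was 0.84 against WT and 0.87 against PIN, beside 0.01 and 0.07 over all tested genes. The standard errors of the members were wide, with a median of 1.17 log2 units in each of these comparisons against 0.40 over all tested genes. Both PCa comparisons share the PCa libraries.

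Cxcr4 (ENSMUSG00000045382, mm9 chr1:130484776-130488870, minus strand) was measured at 1.38, 0.453 and 0.512 CPM in WT. It was at 0.828, 1.76 and 0.603 CPM in PIN and at 14.8 and 5.93 CPM in PCa. Both tumors lay above every WT and PIN library, and the WT and PIN values overlapped. The log2 fold change was 3.72 ± 0.75 (SE) against WT (edgeR adjusted p = 0.0270) and 3.28 ± 0.73 against PIN (adjusted p = 0.0455). Against WT the fold change was 4.41 (adjusted p = 0.0373) without WT 1. It was 2.93 (adjusted p = 0.0437) without PCa 1, the tumor rich in leukocyte markers, where PCa 2 alone stands for PCa and is assumed to vary as the WT and PIN libraries do. Against PIN the call was lost without PCa 1 (2.49, adjusted p = 0.0743) and without any 1 of the PIN libraries, of which leaving out PIN 3 gave the highest adjusted p, 0.174. Leaving out WT 3 gave adjusted p-values of 0.0956 against WT and 0.0800 against PIN, and leaving out WT 2, PIN 1 or PIN 3 gave 0.0610, 0.0539 and 0.0529 against WT. The call was also lost in the model of only the 2 groups compared (0.0938 against WT and 0.0723 against PIN). It was lost too with a block for replicate number (0.0802 against WT and 0.133 against PIN) and, against PIN, with upper-quartile scaling (0.0572). The fold change stayed above 2 on the log2 scale in every setting tried. The pan-leukocyte sum was above every WT library in PCa 1 and below every WT library in PCa 2. The part of leukocyte content in the Cxcr4 difference was not tested. Endothelial markers summed to 113.9 and 149.9 CPM in PCa, against 15.0 to 95.6 CPM in WT and 79.2 to 104.4 CPM in PIN. In PCa 1 Pecam1 (53.8 CPM) was above every WT and PIN library, while Vwf, Tek, Cdh5 and Kdr were each below WT 1. In PCa 2 Vwf (67.85 CPM), Cdh5 and Kdr were above every other library, and Tek was within the WT range. The part of endothelial content in the Cxcr4 difference was not tested.

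Cxcl12, the stromal ligand of Cxcr4, had lower values in PCa, in the direction opposite to its receptor, but was not called. It was at 58.8, 15.6 and 59.4 CPM in WT, at 47.6, 67.4 and 41.2 CPM in PIN, and at 21.4 and 3.70 CPM in PCa. Both tumors were below every PIN library, while WT 2 lay between the tumors. The log2 fold change was -1.83 ± 0.82 against WT (edgeR adjusted p = 0.196) and -2.05 ± 0.83 against PIN (adjusted p = 0.192). Without PCa 1 it was -3.58 (adjusted p = 0.0305) and -3.80 (adjusted p = 0.0282), values for PCa 2 alone with the spread taken from WT and PIN, and without PCa 2 it was -1.05 (adjusted p = 0.398) and -1.26 (adjusted p = 0.360). Smooth muscle markers fell in the same libraries, and fibroblast markers summed to 610.1 CPM in PCa 1 and 261.1 CPM in PCa 2 against 473.4 to 788 CPM in WT. The part of stromal content in the Cxcl12 values was not tested.

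Cxcr7, the atypical receptor that takes up Cxcl12 without G protein signaling, was the most abundant receptor per length in WT and PIN. It was at 35.1, 13.2 and 36.6 CPM in WT, at 73.1, 51.9 and 46.7 CPM in PIN, and at 26.8 and 23.8 CPM in PCa. Every PIN library lay above every WT and PCa library, and the PCa values fell inside the WT range. The log2 fold change was -1.18 ± 0.45 in PCa against PIN (edgeR adjusted p = 0.172) and -0.16 ± 0.43 in PCa against WT (adjusted p = 0.841). Without WT 2, which enters the shared estimate of spread, the difference from PIN was called (-1.18, adjusted p = 0.0373). Per length, mean Cxcr4 was 1.34 TPM in WT, 2.02 TPM in PIN and 22.1 TPM in PCa, and mean Cxcr7 was 26.7, 58.3 and 29.3 TPM in the same order. In WT and PIN every library had less Cxcr4 than Cxcr7, and the tumors differed, with 31.2 TPM of Cxcr4 beside 30.5 TPM of Cxcr7 in PCa 1 and 13.01 beside 28.2 TPM in PCa 2.

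**Figure D1:**
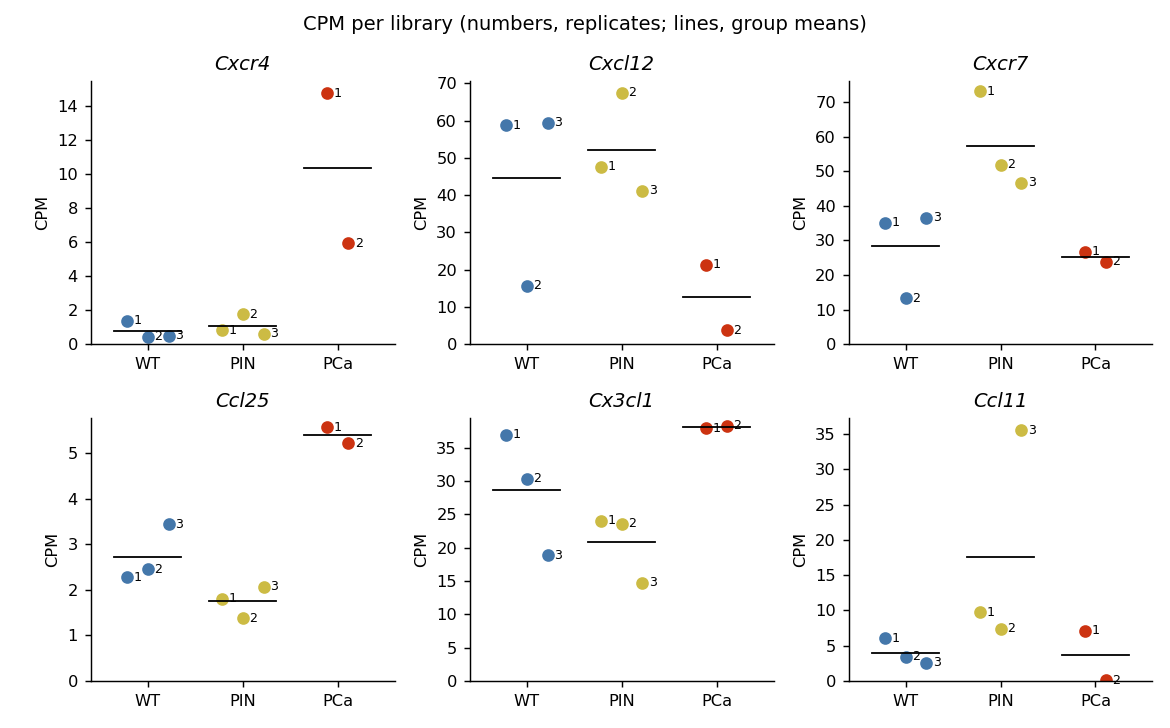
CPM of Cxcr4, Cxcl12, Cxcr7, Ccl25, Cx3cl1 and Ccl11 in each library (points, numbered by replicate; horizontal lines, group means; linear axes from 0). Cxcr4, Ccl25 and Cx3cl1 are the tested members with both PCa libraries above all WT and PIN libraries, and Cxcr7 and Ccl11 the tested members with all PIN libraries above all WT libraries.

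Ccl25 and Cx3cl1 were, with Cxcr4, the 3 tested members whose level was higher in both tumors than in every other library, a pattern held by 13.4% of all tested genes. Ccl25, the ligand of the gut-homing receptor Ccr9, was at 2.27, 2.45 and 3.44 CPM in WT, at 1.80, 1.38 and 2.07 CPM in PIN, and at 5.57 and 5.21 CPM in PCa. Its groups were ordered without overlap, PIN below WT below PCa. The log2 fold change was 1.62 ± 0.41 against PIN (edgeR adjusted p = 0.0599, just outside the limit) and 0.98 ± 0.41 against WT (adjusted p = 0.166). Ccr9 itself did not exceed 0.579 CPM in any library. Cx3cl1, a membrane-tethered chemokine made by epithelium and endothelium, was at 36.9, 30.3 and 18.9 CPM in WT, at 24.1, 23.6 and 14.7 CPM in PIN, and at 37.9 and 38.3 CPM in PCa. The tumors exceeded the highest WT library only slightly, and the log2 fold change was 0.41 ± 0.34 against WT (adjusted p = 0.476) and 0.87 ± 0.34 against PIN (adjusted p = 0.176). Its receptor Cx3cr1, carried by monocytes and tissue macrophages, was at 6.92, 2.27 and 5.93 CPM in WT, 6.95, 8.02 and 5.84 CPM in PIN, and 20.0 and 5.18 CPM in PCa, so only PCa 1 lay above the rest.

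The ligands that attract neutrophils differed widely between the tumors, summing to 112.9 CPM in PCa 1 and 2.88 CPM in PCa 2. Cxcl1, Cxcl2, Cxcl3, Cxcl5 and Cxcl15 lie on chromosome 5 of the mouse within 146.6 kb (mm9 chr5:91188325-91334935), all on the plus strand. Cxcl1, Cxcl2, Cxcl3 and Cxcl5 were highest in PCa 1 and at most 1.22 CPM in any other library. Because they were high together, the sequence before each gene is shown. The 4 sequences are the 150 bases before the annotated start (mm9, plus strand, 5′ to 3′), and capitals mark the longest run of letters that all 4 share.
Cxcl1, chr5:91320117-91320266: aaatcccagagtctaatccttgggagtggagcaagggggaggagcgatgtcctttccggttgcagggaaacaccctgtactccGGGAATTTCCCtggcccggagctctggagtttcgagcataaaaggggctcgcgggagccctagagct
Cxcl2, chr5:91332747-91332896: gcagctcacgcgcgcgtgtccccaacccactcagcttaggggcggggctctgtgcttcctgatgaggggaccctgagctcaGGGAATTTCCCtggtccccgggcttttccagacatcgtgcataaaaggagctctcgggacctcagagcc
Cxcl3, chr5:91214979-91215128: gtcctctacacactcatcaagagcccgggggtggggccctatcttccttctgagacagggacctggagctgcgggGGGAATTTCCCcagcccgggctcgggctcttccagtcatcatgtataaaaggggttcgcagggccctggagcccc
Cxcl5, chr5:91188175-91188324: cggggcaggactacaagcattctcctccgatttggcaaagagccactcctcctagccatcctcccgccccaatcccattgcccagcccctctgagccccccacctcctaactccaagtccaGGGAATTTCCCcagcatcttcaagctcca
The shared run is GGGAATTTCCC, 11 bases on the plus strand in each, and it starts 67 bases before the annotated start of Cxcl1, 69 before that of Cxcl2, 75 before that of Cxcl3 and 29 before that of Cxcl5. It resembles the sites bound by NF-κB, a transcription factor of inflammatory responses. Within 250 bases before the start, on either strand, these letters occur in 11 of 27030 genes (0.0407%), among them these 4 ligands and none of the other 54 rows described here. The run was chosen as the one that the 4 share, so its presence in them is a description, and no binding was measured in these samples.

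Cxcl5 was at 64.0 CPM in PCa 1, at 0.504 and 0.0344 CPM in PIN 1 and PIN 2, and had no count in the other 5 libraries. Cxcl2 was at 35.5 CPM in PCa 1 and at most 0.216 CPM elsewhere. Cxcl3 was at 4.38 CPM in PCa 1 (136 counts) and had no count in any other library. Because they were high in 1 library alone, these 3 ligands did not pass the filter, which asks for more than 1 CPM in 2 libraries, and they have no test. The level in PCa 1 was 127.0-fold (Cxcl5) and 164.3-fold (Cxcl2) above that in the highest of the other libraries, and for Cxcl3 at least 29.5-fold higher than the level that 3 counts would give in 1 of them. Cxcl1, which passed through PCa 1 and PIN 1, was at 0.297, 0.498 and 0 CPM in WT, at 1.22, 0.0689 and 0.113 CPM in PIN, and at 8.34 and 0.137 CPM in PCa. Its log2 fold change was the largest of any tested member, 4.0 ± 1.89 against WT, and did not pass the test (edgeR adjusted p = 0.219). PCa 2 lay within the WT range, and the fold change was 5.0 without that library. Cxcl15, the lung-type member of the same cluster, was at 0.708 CPM in PCa 1 and 2.71 CPM in PCa 2, inside the range of WT in the first and above every other library in the second.

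**Figure D2:**
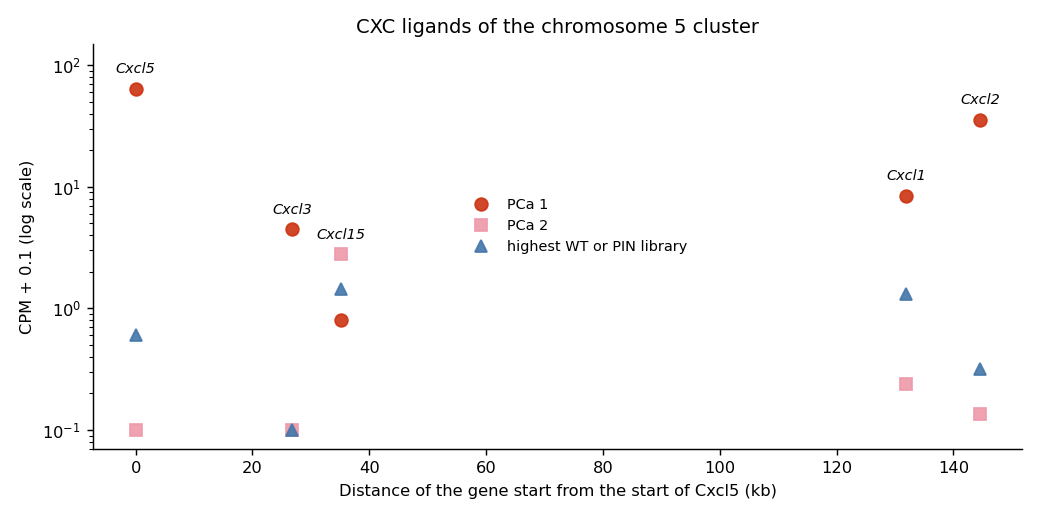
Level of the 5 CXC ligands of the chromosome 5 cluster (CPM plus 0.1, log scale) against the distance of each gene's start from that of Cxcl5 in kb, for PCa 1, PCa 2 and the highest WT or PIN library. Cxcl5, Cxcl3, Cxcl1 and Cxcl2 are highest in PCa 1, and Cxcl15 is highest in PCa 2.

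Cxcr2, the receptor for these ligands on neutrophils, was at 6.73 CPM in PCa 1 and at most 0.317 CPM in every other library. Cxcr1 did not exceed 0.290 CPM. The 6 neutrophil markers, of which 2 passed the filter, summed to at most 1.52 CPM in each WT and PIN library, to 110.5 CPM in PCa 1 and to 7.03 CPM in PCa 2. PCa 1 was thus the highest library here too, while PCa 2, where S100a8 alone was at 5.52 CPM, had a raised marker sum without raised Cxcr2 or Cxcl5. S100a8, S100a9 and Csf3r made up nearly all of the sum in PCa 1, and Ly6g, a defining surface marker of neutrophils, did not exceed 0.0644 CPM. In PCa 1 the cytokine gene Il1b was at 28.7 CPM against at most 0.842 CPM elsewhere. The part of neutrophil content in these values was not tested.

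The CC ligands and receptors of monocytes and macrophages differed between the tumors as well. Ccl6, an abundant ligand of mouse myeloid cells, was at 17.7, 27.8 and 4.50 CPM in WT, at 8.75, 14.5 and 6.55 CPM in PIN, and at 65.4 and 1.27 CPM in PCa. Its close relative Ccl9 was at 8.45, 29.2 and 2.45 CPM in WT, at 5.25, 8.40 and 4.41 CPM in PIN, and at 35.5 and 0.789 CPM in PCa. For both genes PCa 1 was the highest and PCa 2 the lowest of all libraries, so the difference from WT was within the spread (log2 fold change 1.00 ± 1.25, edgeR adjusted p = 0.648, for Ccl6 and 0.44 ± 1.34, adjusted p = 0.863, for Ccl9). Ccl8, a monocyte attractant, was at 43.2 CPM in PCa 1 and 0.377 CPM in PCa 2, and at 14.02 CPM in PIN 2 against at most 4.35 CPM in the other WT and PIN libraries. The sign of its fold change in PCa against WT rested on PCa 1, being 3.63 ± 2.02 with both tumors (edgeR adjusted p = 0.290) and -2.20 without that library. Ccl3 and Ccl4, made by activated macrophages and other leukocytes, were at 12.4 and 2.16 CPM in PCa 1 and at most 0.379 and 0.241 CPM elsewhere, and did not pass the filter.

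Ccl2 and Ccl7, the main ligands of Ccr2, were high in a normal prostate and not in the tumors. Ccl2 was at 0.593, 5.48 and 0.439 CPM in WT, at 0.180, 0.964 and 0.414 CPM in PIN, and at 0.933 and 0.137 CPM in PCa. Ccl7 was at 0.692, 5.62 and 0.476 CPM in WT, at 0.180, 1.72 and 0.226 CPM in PIN, and at 0.869 and 0.0343 CPM in PCa. Both had their highest value in WT 2, and their fold changes were among the lowest of the tested members in PCa against WT, at -2.01 ± 1.41 for Ccl2 (edgeR adjusted p = 0.401) and -2.31 ± 1.70 for Ccl7 (adjusted p = 0.424). The value for Ccl7 was -0.36 without WT 2, -5.84 without PCa 1 and -1.35 without PCa 2, and that for Ccl2 was -1.19 without PCa 2. Ccl12, a further Ccr2 ligand of the mouse, ranged from 0.324 to 1.31 CPM in WT and PIN and was at 1.77 and 0.171 CPM in PCa. Ccl2, Ccl7, Ccl11, Ccl12 and Ccl8 lie within 81.2 kb on chromosome 11, yet their highest libraries were WT 2 for Ccl2 and Ccl7, PIN 3 for Ccl11 and PCa 1 for Ccl12 and Ccl8.

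Of the receptors for these ligands, Ccr1, found on monocytes and neutrophils, was at 1.78, 5.62 and 0.915 CPM in WT, 0.936, 3.27 and 0.979 CPM in PIN, and 16.5 and 0.343 CPM in PCa. Ccr2, the receptor of inflammatory monocytes, was at 13.3, 5.17 and 4.68 CPM in WT, 7.24, 13.98 and 5.16 CPM in PIN, and 19.1 and 1.54 CPM in PCa. Both were highest in PCa 1 and lowest in PCa 2, and neither was called (edgeR adjusted p = 0.483 for Ccr1 and 0.810 for Ccr2 against WT). The 9 macrophage and monocyte markers summed to 75.4 to 187.6 CPM in WT, 107 to 208.5 CPM in PIN, 397.3 CPM in PCa 1 and 36.5 CPM in PCa 2, thus with the same highest and lowest library. Their part in the receptor values was not tested.

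**Figure D3:**
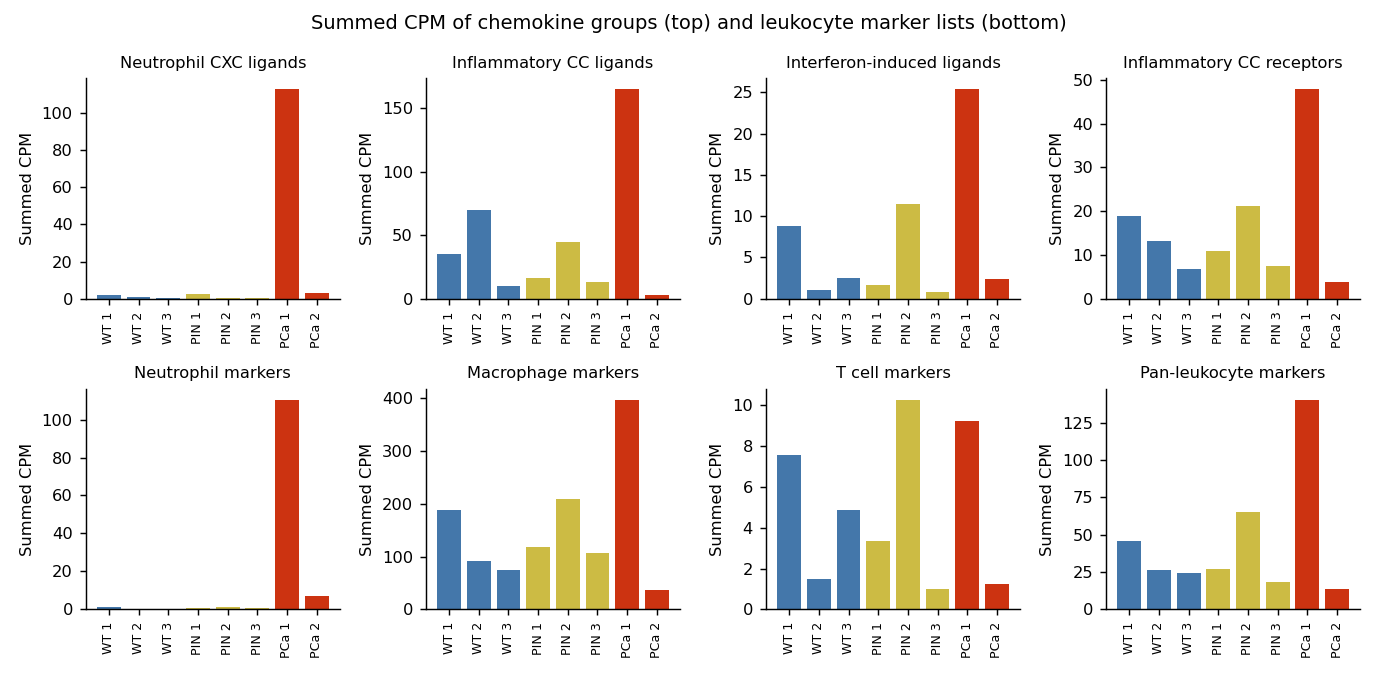
Summed CPM per library (bars from 0, coloured by group: blue WT, yellow PIN, red PCa) of 4 chemokine groups in the upper row and 4 leukocyte marker lists in the lower row. In every panel but that of the T cell markers PCa 1 is highest, and the interferon-induced ligands and the T cell markers are also raised in WT 1 and PIN 2.

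The interferon-induced ligands Cxcl9 and Cxcl10, which draw T cells and NK cells through Cxcr3, were high in a library of each group. Cxcl9 was at 5.78, 0.136 and 1.57 CPM in WT, at 0.792, 9.61 and 0.490 CPM in PIN, and at 15.6 and 0.411 CPM in PCa. Cxcl10 was at 2.67, 0.861 and 0.878 CPM in WT, at 0.792, 1.76 and 0.264 CPM in PIN, and at 8.53 and 1.78 CPM in PCa. WT 1, PIN 2 and PCa 1 held the highest value of their group for both. Cxcl10 had the larger contrast in PCa against PIN, with a log2 fold change of 2.45 ± 0.97 that did not pass the test (edgeR adjusted p = 0.188) and was 0.93 without PCa 1, 3.19 without PCa 2 and 3.28 without PIN 2. Cxcl11, in the same 44.2 kb on chromosome 5, exceeded 1 CPM only in PCa 1, where it was at 1.26 CPM. Cxcr3 was at 1.04, 0.136 and 0.329 CPM in WT, 0.324, 1.14 and 0.151 CPM in PIN, and 0.933 and 0.0686 CPM in PCa.

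Ccl5, a ligand made largely by T cells and NK cells, was again high in WT 1 (2.62 CPM), PIN 2 (3.24 CPM) and PCa 1 (2.99 CPM) and at most 0.952 CPM in the other 5 libraries. Cxcr6, the receptor of tissue-resident T cells, was at 1.48, 0.227 and 0.915 CPM in WT, 0.828, 3.07 and 0.527 CPM in PIN, and 2.70 and 0.0343 CPM in PCa. Its ligand Cxcl16, made by macrophages and epithelium, was at 15.7, 15.4 and 13.03 CPM in WT, 28.1, 12.9 and 8.40 CPM in PIN, and 54.8 and 8.02 CPM in PCa. Receptor and ligand were lowest in PCa 2, while the ligand was high in PIN 1 and the receptor in PIN 2. The 5 T cell markers summed to 7.56, 1.49 and 4.87 CPM in WT, 3.35, 10.3 and 0.979 CPM in PIN, and 9.20 and 1.23 CPM in PCa, so that WT 1, PIN 2 and PCa 1 were the highest of their groups here too. The part of T cell content was not tested.

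Among the ligands and receptors of lymphoid tissue, Cxcl13, the attractant of B cells, was at 32.8 CPM in PIN 2, with 4.46 and 3.05 CPM in the other PIN libraries, 1.903 to 4.60 CPM in WT, and 14.5 and 0.274 CPM in PCa. B cell markers summed to 7.82 CPM in PIN 2 and to between 0.480 and 5.21 CPM in the other libraries. Its receptor Cxcr5 stayed at or below 0.483 CPM. Ccr7, the receptor that brings dendritic cells and T cells to lymph nodes, was at 1.83 CPM in PCa 1 and at most 0.395 CPM elsewhere. Of its ligands, Ccl21a did not exceed 0.483 CPM, and Ccl19, Ccl21b and Ccl21c had no count. Ccl19, the Ccl21 genes and the Ccl27 genes have near-identical copies in the mouse genome, so reads that fit several copies may not have been counted, and these 0 counts are uncertain.

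Ccl11 (eotaxin), which attracts eosinophils, was the member with the largest rise in fitted value from WT to PIN. It was at 6.03, 3.40 and 2.56 CPM in WT, at 9.75, 7.40 and 35.6 CPM in PIN, and at 7.14 and 0.103 CPM in PCa. Every PIN library was above every WT library, with PIN 3 far above the rest, and the log2 fold change of 2.14 ± 1.19 was within the spread (edgeR adjusted p = 1.00) and was 1.10 without PIN 3. In PCa it was -0.14 ± 1.29 against WT (adjusted p = 0.961) and -2.27 ± 1.39 against PIN (adjusted p = 0.377), the latter -1.24 without PIN 3. Without PCa 1, Ccl11 was called lower in PCa against PIN (-7.33, adjusted p = 0.0188) and against WT (-5.20, adjusted p = 0.0425), a result that rests on 3 counts in PCa 2 as the lone tumor, with the spread taken from WT and PIN. Its receptor Ccr3 did not exceed 0.483 CPM. Of the other ligands of this group, Ccl22 reached 3.67 CPM and Ccl17 0.740 CPM in PCa 1, Ccl24 reached 1.95 CPM in WT 2 and was at 0.0343 CPM in PCa 2, Ccl1 had counts in PCa 1 alone (0.161 CPM), and Ccl26 had none. Their receptors Ccr4 and Ccr8 stayed at or below 0.611 and 0.129 CPM.

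Of the ligands made mainly by epithelium, Cxcl14, Cxcl16, Ccl25 and Ccl27a had counts in all libraries. Cxcl14, a constitutive ligand of epithelia, was at 46.9, 7.30 and 25.3 CPM in WT, 30.8, 24.4 and 43.0 CPM in PIN, and 65.7 and 24.2 CPM in PCa. The groups overlapped, and the log2 fold change in PCa against WT was 0.76 ± 0.71 (edgeR adjusted p = 0.533). Ccl27a varied little, from 1.43 to 2.93 CPM over the 8 libraries. Cxcl17, a mucosal ligand, was at 1.29 CPM in WT 1, 1.67 CPM in PCa 1 and at most 0.360 CPM elsewhere. WT 1 and PCa 1 are the libraries with the most seminal vesicle transcripts. PCa 2, next with 284.8 CPM of these markers, had 0.0343 CPM of Cxcl17. The part of seminal vesicle content was not tested. Ccl20, the ligand of Ccr6, was at 5.50 CPM in PCa 1 and at most 0.216 CPM elsewhere, while Ccr6 did not exceed 0.180 CPM in any library. Ccl27b, Ccl28 and the second Ccl25 row, which lies inside the first on the same strand, had no count, the row of Ccl28 is on a contig outside the chromosomes, and these 0 counts are uncertain too. Ccr10 reached 0.354 CPM in PCa 1, and Xcl1, a ligand of cross-presenting dendritic cells, reached 0.579 CPM in the same library.

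The 2 tumors differed from each other in most of these genes. Of the 28 tested members, 22 were above every WT library in PCa 1 and 0 below, where 32.9% and 32.3% of all tested genes were. In PCa 2, 4 were above every WT library and 13 below, where 31.9% and 36.0% of all tested genes were. For 9 members, Ccl6, Ccl9, Ccl11, Ccl12, Cxcl13, Cxcl16, Ccr1, Ccr2 and Cxcr6, PCa 1 was above and PCa 2 below the whole WT range, a pattern of 7.13% of all tested genes. The level in PCa 1 was over 4 times that in PCa 2 for 20 of the 28 (13.7% of all tested genes), and the reverse held for 0 (4.52%). The median ratio of PCa 1 to PCa 2 was 6.83 over the tested members and 1.00 over all tested genes. These counts are over members that passed a filter which PCa 1 helped some of them to pass. Over the 51 members with any count, PCa 1 lay above the WT range for 43 (36.6% of all genes with a count) and PCa 2 for 6 (29.4%). The tumors are single libraries here, so the difference between them has no replicate check.

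**Figure D4:**
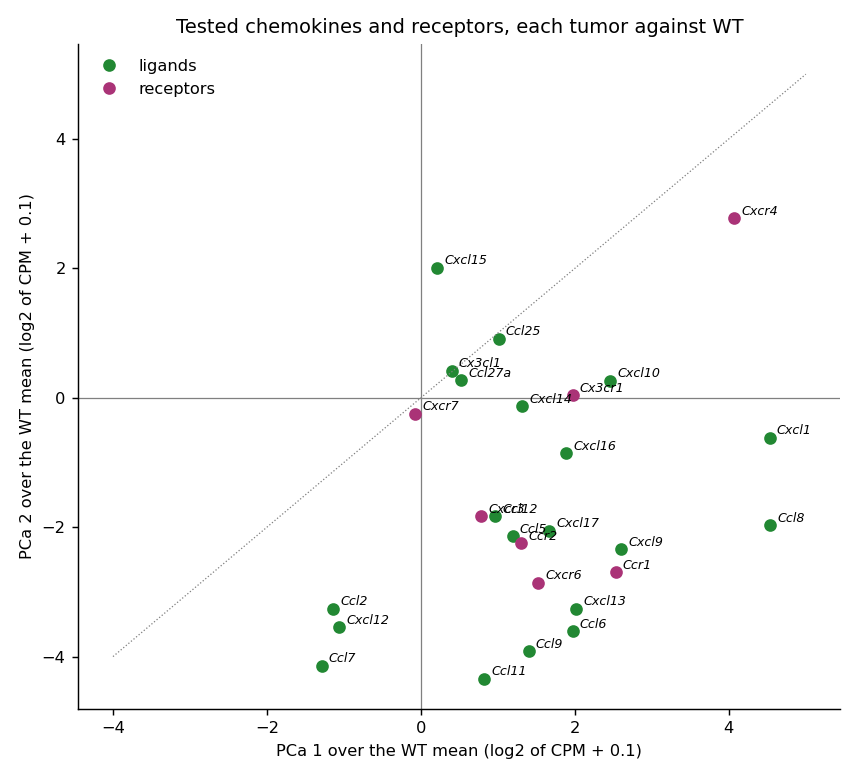
Level of the tested ligands (green) and receptors (purple) reported here in PCa 1 (horizontal) and PCa 2 (vertical) relative to the WT mean, as log2 ratios of CPM plus 0.1; the dotted line marks equal ratios. Most points lie right of the vertical line and below the horizontal one, Cxcr4 is raised in both tumors, and Ccl2, Ccl7 and Cxcl12 are below the WT mean in both.

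The comparison of PIN with WT asked whether chemokine genes differ before carcinoma. No member was called, and neither was any other gene (0.00% of 14034). At an unadjusted p under 0.05 there was 1 member, Cxcr7 (log2 fold change 1.02 ± 0.39, edgeR adjusted p = 1.00), against 3.51% of all tested genes, and DESeq2 called 0 members as well. Cxcr7 and Ccl11 were the tested members with every PIN library above every WT library (6.48% of all tested genes), and Ccl25 was the tested member with every PIN library below every WT library (6.38%). The largest fitted falls were those of Ccl2 (-2.05 ± 1.22), Ccl7 (-1.66 ± 1.42) and Cxcl17 (-1.39 ± 1.77), each with a high value in a single WT library. They moved with PIN libraries as well, to -2.85 for Ccl2 and -3.45 for Ccl7 without PIN 2 and to -2.56 for Cxcl17 without PIN 1. The largest fitted rises after Ccl11 were those of Cxcl13 (1.94 ± 1.33) and Ccl8 (1.54 ± 1.81), each set by PIN 2. PIN 2 held the highest PIN value for 18 of the 28 tested members, where 36.5% of all tested genes had theirs, and its pan-leukocyte sum of 65.4 CPM was the highest of the group. WT 1 likewise held the highest WT value for 17 of the 28 (38.6% of all tested genes) and the highest pan-leukocyte sum of WT.

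Of 40 genes listed with the chemokine system outside the rule, 33 were tested, with a median log2 fold change of 0.48 for PCa over WT, 0.45 for PCa over PIN and -0.02 for PIN over WT. Of them 2 were called higher and 1 lower in PCa when set against WT, 1 higher and 0 lower when set against PIN, and 0 were called between PIN and WT. These 3 and 1 of 33 are near the shares of all tested genes called, 8.54% and 5.72%. Elmo1, which links chemokine receptors to Rac activation with Dock2, was at 27.8 to 34.9 CPM in WT and PIN and at 59.8 and 115.5 CPM in PCa, a log2 fold change of 1.58 against WT (edgeR adjusted p = 0.0197) and 1.47 against PIN (adjusted p = 0.0310). Nfkbiz, an atypical IκB protein induced by inflammatory signals, was at 8.38 to 18.4 CPM in WT and PIN and at 88.2 and 20.1 CPM in PCa (2.49 against WT, adjusted p = 0.0344). Ccrl1, the scavenging receptor of Ccl19, Ccl21 and Ccl25, in the tested row of the 2 that carry its symbol, was at 3.49 to 7.12 CPM in WT and PIN and at 0.772 and 0.103 CPM in PCa (-3.63 against WT, adjusted p = 0.0407). The highest fitted values in PCa against WT after Nfkbiz were those of Irf7 (2.41, adjusted p = 0.168) and Tnf (2.00, adjusted p = 0.318), and the lowest after Ccrl1 were those of Arrb2 (-0.94, adjusted p = 0.216) and Rgs16 (-0.85, adjusted p = 0.478). Elmo1 was higher in PCa 2 than in PCa 1. These calls depended on the libraries in the fit: against WT the count was 0 in the model of 2 groups, without WT 1 and without WT 3, 1 without WT 2 or without any PIN library, 4 without PCa 2 and 7 without PCa 1. Against PIN it was 0 in the model of 2 groups and without WT 1, WT 3 or any PIN library, 2 without PCa 2 and 8 without PCa 1. The calls over all tested genes moved in the same directions, from 1198 against WT to 2477 without PCa 1 and 347 without WT 3, and from 803 against PIN to 2251 without PCa 1 and 78 without PIN 3.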

How the data were processed

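Total RNA of prostate tissue was ribosome-depleted and sequenced in paired ends. Per the labels and the study's methods, the authors trimmed reads with cutadapt (1.9.1), aligned them to mm9 with HISAT2 (2.1.0) and counted reads per gene with HTSeq (0.6.1), and they deposited 1 table of raw counts. The strand setting is not given in the sources used here.

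The members and gene lists were chosen with earlier results of these data known. Genes with CPM above 1 in at least 2 libraries (14034) were scaled by TMM and tested with edgeR (4.0.16; R 4.3.3) by the quasi-likelihood F-test (two-sided), in a model of 3 groups over 8 libraries with 5 residual degrees of freedom. P-values were adjusted by Benjamini-Hochberg over all tested genes, and a gene was called at adjusted p under 0.05 and absolute log2 fold change over 1. Fold changes are given ± SE. The scripts were tested on simulated data with less spread between libraries than these samples have, so that test gives no error rate for them. CPM use TMM-scaled totals, and TPM exon lengths of the mm9 annotation. A count of 3, the floor used for folds against 0, is 0.0965 to 0.148 CPM depending on the library and covers counting error only. Ratios between tumors use CPM plus 0.1. The labels give each library an identifier of its own but do not say more of its origin, so p-values measure the spread between these samples.

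Named in the text were all called members, the 10 with the highest mean TPM, each receptor passing the filter, the 3 largest rises and falls per comparison, and ligands or receptors of called members, with the rest by range; a receptor that passed the filter is counted in the totals but not reported here by itself. Pathway genes named were those called and the 3 highest and 3 lowest. Il1b and the individual neutrophil markers were named after their values were seen. Alternatives were DESeq2 (1.42.0), upper-quartile scaling, no filter, models of the 2 groups compared, a replicate block, no fold limit and leaving out each library. Promoter sequences were read from the mm9 genome at annotated gene starts.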

Additional observations from a re-analysis of the deposited data

How the results depend on the processing

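Cxcr4 kept a positive fold change in PCa against both groups in each alternative, but not its call. The count of members called in PCa against WT was 1 with DESeq2, upper-quartile scaling, no filter and no fold limit, 0 in a model of only the 2 groups compared and 0 with the replicate block, and 0 to 3 when libraries were left out in turn. In PCa against PIN it was 3 with DESeq2 (Cxcr4, Ccl25 and Cxcl12), 1 without a filter or without a fold limit, 0 with upper-quartile scaling, 0 in the model of 2 groups, 0 with the replicate block, and 0 to 2 when libraries were left out. With the replicate block the fold change of Cxcr4 was 3.42 (edgeR adjusted p = 0.0802) against WT and 2.85 (0.133) against PIN. The deviations of same-numbered libraries correlated at -0.0389 to 0.265 and above 0.1 in 3 of 7 pairs. The highest correlation between libraries of different number was 0.168. The deviations of the 2 PCa libraries from their mean mirror each other, so these values cannot show whether the numbers pair the libraries.

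With the replicate block 0 genes of the pathway list were called in any comparison, and with DESeq2 4, 3 and 0 were. Where a PCa library was left out, the other is assumed to vary like WT and PIN. DESeq2 gave adjusted p = 0.00121 for Ccl25 and 0.0467 for Cxcl12 in PCa against PIN. When libraries were left out, the fold changes that changed sign ranged from -3.45 to 0.29 for Ccl7, -1.40 to 3.40 for Ccl8 and -0.12 to 1.13 for Cxcr4 in PIN against WT, and from -2.20 to 5.49 for Ccl8 in PCa against WT. Of 323 alternative values for 24 named comparisons, 299 kept their direction and side of the limits, and 0 changed sign other than by leaving out a library. Among the members, only Cxcr4 in PCa against WT and against PIN was called in the main fit. All 14 values that lost a call were those of Cxcr4, so the tally mostly counts values that were not called in either fit.

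In alternatives chosen after seeing the data, the 22 members above every WT library in PCa 1 became 22 with upper-quartile scaling and 24 without WT 1, the 13 below in PCa 2 stayed at 13 in both, and the 20 members over 4 times higher in PCa 1 became 21 with upper-quartile scaling. Over all genes, DESeq2 called 2487 in PCa against WT, 1984 in PCa against PIN and 39 in PIN against WT, beside 1198, 803 and 0 in edgeR; the model of 2 groups called 130, 388 and 0, the replicate block 413, 151 and 0, and the fits without 1 library 347 to 2477, 78 to 2251 and 0. With the block Cxcl1 was 1.89 and Ccl2 -1.22 in PCa against WT. PCa had 2 libraries, and members at under 1 CPM rest on few counts.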
